A study of Mus musculus with 9 samples.

Results

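Integrins are surface receptors built from 1 alpha and 1 beta chain that bind matrix proteins and counter-receptors on other cells. Their grip depends on talin and kindlin, which bind the beta tail from inside the cell, and tetraspanins hold them in membrane clusters. In bone marrow these receptors, with selectins and their ligands, hold blood progenitors and leukemia cells in the niche and guide their exit into blood. The genes described here are 37 members of this machinery, chosen by name: 22 integrin chains, P-selectin and its ligand PSGL-1, the counter-receptors Icam1, Icam2 and Vcam1, the receptors Cd44 and Cd47, 5 tetraspanins, and the 3 linkers Fermt3, Tln1 and Vcl. Each was read from the probe set carrying its symbol alone, the one with the highest mean over all 9 arrays where there were several. That gave values for 36 of the 37 among 18194 genes tested, and the tetraspanin gene Cd63 was not analysed here.

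The arrays measured RNA of freshly harvested bone marrow cells from mouse leukemias on a C57/BL6 X 129 background. All 6 MLL-AF9 leukemias, driven by the fusion of MLL with AF9, came from primary leukemias homozygous for a floxed Af10 allele (gene Mllt10, a partner of the histone methyltransferase DOT1L), transduced with a tdTomato vector, sorted and passed to secondary recipients. The 3 Af10 deleted leukemias received the vector with Cre recombinase and the 3 Af10 floxed ones the empty MIT vector, and the harvested cells were sorted for tdTomato. The 3 comparison samples were primary leukemias transduced with Hoxa9 and Meis1, neither sorted nor treated before RNA was made. Every deleted leukemia also expressed Cre, so effects of the enzyme and of losing Af10 cannot be told apart, and against Hoxa9-Meis1 leukemias the oncogene, transplant generation, vector and sort cannot be told apart. The labels do not say that arrays stand for separate mice or separate primary leukemias, so the p-values reflect only how far these samples spread, and that spread may be technical.

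Values are log2(intensity + 1), ± gives the SD of the 3 arrays in a group, and called genes are those with a limma p under 0.05 after Benjamini-Hochberg adjustment over all genes. Group differences were fitted in 1 model over the 9 arrays. All 4 Mllt10 probe sets were lower in deleted leukemias, by 0.76 to 1.05. The 10 measured myeloid markers, among them Mpo and Elane, lay above background in every group, with a summed intensity of 77362 to 83559 in deleted, 55912 to 74957 in floxed and 78586 to 84266 in Hoxa9-Meis1 leukemias. Floxed replicate 5 had the widest gap between the 3' and 5' Gapdh control probe sets (1.03, against 0.44 to 0.81 on the other arrays). On deleted replicate 6, chromosome 1 genes with a mean above 8 lay 0.32 above the other deleted arrays at the median, and on floxed replicate 4, chromosome 15 genes lay 0.20 above the other floxed arrays. On floxed replicate 5 such medians ran from -0.15 for chromosome 7 to 0.17 for chromosome 18. Both doubted arrays, deleted replicate 6 and floxed replicate 5, were left out together as an alternative.

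In deleted against floxed leukemias, 9 of the 36 adhesion genes were called, 25% against 6.85% of all genes. The genes were chosen with earlier results of these data known. Whether adhesion genes change more often than others was therefore not tested by these shares. Itga1, Itga6, Itgb3, Itgb7 and Cd47 fell, 5 of 36 beside 3.63% of all genes, and Itgb5, Selp, Cd9 and Cd82 rose, 4 of 36 beside 3.22%. The chains that fell included the collagen receptor chain Itga1 (15.5-fold), the gut-homing chain Itgb7 (5.42-fold) and Itgb3 (4.12-fold), while the main leukocyte beta chains Itgb2 and Itgb1 were not called. The median difference was 0.11 over the 36 genes and 0.06 over all genes, with 21 of the 36 above 0 and 15 below. Values of 17 of the 36 did not overlap between the groups, against 25.9% of all genes. With deleted replicate 6 and floxed replicate 5 left out together, 2 genes rose (Itgb5 and Cd9) and 2 fell (Itgb3 and Itgb7).

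**Figure D1:**
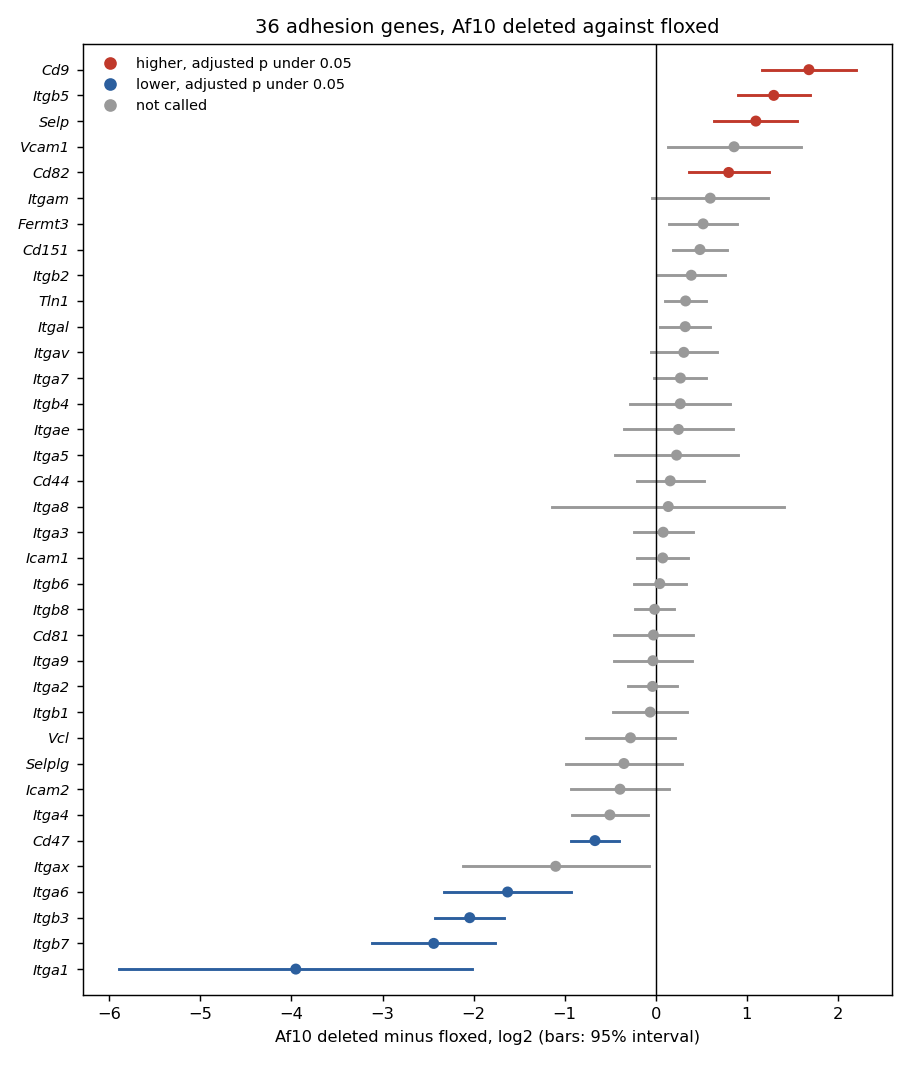
Difference between Af10 deleted and floxed leukemias for each of the 36 adhesion genes, in log2 units, with its 95% interval from the limma fit. The 5 genes in blue fell, from Itga1 at -3.95 to Cd47 at -0.67, the 4 in red rose, with Cd9 highest at 1.68, and the 27 in grey were not called.

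Among beta chains, Itgb7 was at 9.27, 8.70 and 9.0 in deleted leukemias, at 11.04, 11.74 and 11.50 in floxed ones and at 10.69, 10.78 and 11.75 in Hoxa9-Meis1 leukemias. All 3 deleted arrays lay below the other 6. Its product pairs with the Itga4 chain to bind MAdCAM-1 on gut endothelium and with the Itgae chain to bind E-cadherin. It fell by 2.44 on the log2 scale after deletion (SE 0.30, limma adjusted p = 0.00203). Itgb7 lies on chromosome 15, and without floxed replicate 4 the difference was -2.63 (limma adjusted p = 0.00368).

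Itgb3, which forms the vitronectin receptor with the Itgav chain and the platelet fibrinogen receptor with Itga2b, was at 7.77, 8.01 and 7.53 in deleted leukemias, against 9.61, 9.96 and 9.87 in floxed and 10.49, 10.88 and 10.52 in Hoxa9-Meis1 leukemias. The 3 groups did not overlap in any pair. It fell by 2.04 on the log2 scale after deletion (SE 0.17, limma adjusted p = 0.000226). The other Itgb3 probe set differed by -0.79 and was not called. Itga2b, a platelet chain outside the 37 and given here as the partner of Itgb3, averaged 7.58 ± 0.24 in deleted against 7.66 ± 0.08 in floxed leukemias (difference -0.08, 95% interval -0.64 to 0.49).

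Itgb5, another partner of Itgav and a vitronectin receptor chain, was at 10.95, 11.14 and 11.38 in deleted leukemias. Floxed leukemias gave 9.75, 9.77 and 10.07, and Hoxa9-Meis1 leukemias 9.35, 9.86 and 9.43, so every deleted array was above the other 6. The rise after deletion was 2.45-fold (SE 0.17 log2, limma adjusted p = 0.00315), and all 4 Itgb5 probe sets were called higher, by 1.21 to 1.38. Their shared partner Itgav averaged 10.62 ± 0.21 in deleted against 10.32 ± 0.25 in floxed leukemias, not called (limma adjusted p = 0.306). With the mean of its 5 probe sets in place of the brightest, Itgav was called (difference 0.43, limma adjusted p = 0.023). Itgb5 and Itgb3, 2 beta chains that can take the same alpha chain, thus moved in opposite directions.

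The promoter windows below show the 5 called genes with a single window in the RefSeq table (GRCm38.p6), 250 bases before to 50 after the start. Windows were found for 27 of the 37 genes and for 7 of the 9 called. Capitals mark matches on either strand to letters that blood and leukemia transcription factors are known to bind: TGACAG (Meis), TGATTNAT (Hox with Pbx), GAGGAA (PU.1) and TGTGGT (Runx). They also mark GGGCGG, the GC box, which is not particular to such factors.
Itga1, chr13:115101915-115102214, minus strand, lower after deletion: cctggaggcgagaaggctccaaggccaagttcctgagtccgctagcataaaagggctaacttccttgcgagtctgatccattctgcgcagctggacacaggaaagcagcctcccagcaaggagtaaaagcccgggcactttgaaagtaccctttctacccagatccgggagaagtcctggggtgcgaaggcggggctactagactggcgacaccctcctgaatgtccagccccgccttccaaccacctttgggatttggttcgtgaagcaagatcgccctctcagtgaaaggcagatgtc
Itgb7, chr15:102231886-102232185, minus strand, lower after deletion: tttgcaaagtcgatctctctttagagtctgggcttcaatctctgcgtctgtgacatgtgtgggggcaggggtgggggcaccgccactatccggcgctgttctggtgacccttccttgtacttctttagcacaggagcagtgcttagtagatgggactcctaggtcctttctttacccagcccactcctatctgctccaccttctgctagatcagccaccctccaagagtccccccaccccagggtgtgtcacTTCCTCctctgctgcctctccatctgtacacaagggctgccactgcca
Itgb5, chr16:33829415-33829714, plus strand, higher after deletion: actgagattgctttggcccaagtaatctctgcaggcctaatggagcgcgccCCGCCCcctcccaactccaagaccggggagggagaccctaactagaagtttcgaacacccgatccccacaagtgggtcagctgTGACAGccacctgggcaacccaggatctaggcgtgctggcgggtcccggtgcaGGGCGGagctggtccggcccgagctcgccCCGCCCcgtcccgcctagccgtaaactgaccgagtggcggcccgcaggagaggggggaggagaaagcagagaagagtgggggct
Selp, chr1:164115014-164115313, plus strand, higher after deletion: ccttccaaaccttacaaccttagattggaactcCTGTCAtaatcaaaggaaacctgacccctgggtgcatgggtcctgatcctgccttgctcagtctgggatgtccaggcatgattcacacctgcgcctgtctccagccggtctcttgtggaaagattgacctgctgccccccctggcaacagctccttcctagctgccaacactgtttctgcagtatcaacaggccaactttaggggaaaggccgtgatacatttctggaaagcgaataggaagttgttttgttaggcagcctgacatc
Cd9, chr6:125494711-125495010, minus strand, higher after deletion: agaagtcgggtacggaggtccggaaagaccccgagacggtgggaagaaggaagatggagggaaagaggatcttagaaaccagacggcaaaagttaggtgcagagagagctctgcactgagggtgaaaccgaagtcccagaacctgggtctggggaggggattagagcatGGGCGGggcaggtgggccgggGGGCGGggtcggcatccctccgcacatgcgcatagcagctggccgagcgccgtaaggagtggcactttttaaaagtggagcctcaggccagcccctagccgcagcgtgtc
The Itgb5 window held 1 Meis and 3 GC box matches, that of Selp 1 Meis match, that of Cd9 2 GC box matches and that of Itgb7 1 PU.1 match, and none of the letters stood in that of Itga1. None of the 5 held the Hox with Pbx letters, found in 3.2% of all 32851 windows. The Meis letters stood in 19.2% of all windows, the PU.1 letters in 28.3%, the Runx letters in 16.8% and the GC box in 35.7%. Among the 34 windows of the 27 genes, 9, 11, 6 and 19 held the Meis, PU.1, Runx and GC box letters. A match is a string of letters and not a measured site.

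Among alpha chains, Itga1, which with Itgb1 binds collagen and laminin, was at 6.74, 6.43 and 6.04 in deleted leukemias and at 9.44, 10.82 and 10.82 in floxed ones. Hoxa9-Meis1 leukemias were split, at 7.53 and 7.13 on 2 arrays and 10.87 on replicate 3. The fall after deletion was 15.5-fold (difference -3.95, 95% interval -5.89 to -2.02, limma adjusted p = 0.0282), and both Itga1 probe sets were called lower. That call was lost without any single deleted array (limma adjusted p of 0.0678, 0.0755 and 0.0786 for replicates 4, 5 and 6), without floxed replicate 5 (0.108) and without floxed replicate 6 (0.0686), at differences of -4.12 to -3.72. The adjusted p was 0.205 with both doubted arrays left out.

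Itga6, a laminin receptor chain of stem and progenitor cells, was at 8.29, 7.58 and 8.10 in deleted leukemias and at 9.61, 9.93 and 9.32 in floxed ones. The groups did not overlap, and the fall was 3.09-fold (SE 0.31 log2, limma adjusted p = 0.0157), with both probe sets called. Without deleted replicate 5 or floxed replicate 5 the call was lost (limma adjusted p = 0.0522 and 0.0699), as it was with deleted replicate 6 and floxed replicate 5 both left out (0.12). Itga4, the chain that binds Vcam1 and fibronectin and holds progenitors in marrow, was at 11.37, 11.03 and 10.87 in deleted and 11.37, 11.51 and 11.89 in floxed leukemias. It was not called by the probe set with the highest mean (difference -0.50, 95% interval -0.92 to -0.09, limma adjusted p = 0.146). All 5 Itga4 probe sets were lower, by 0.50 to 1.42, 1 of them was called, and their mean was called at a difference of -0.98 (limma adjusted p = 0.0377).

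The fibronectin receptor chain Itga5 was at 9.42, 9.16 and 9.85 in deleted and 9.91, 8.59 and 9.25 in floxed leukemias, overlapping groups with a difference of 0.23 (95% interval -0.45 to 0.90). Its 4 probe sets disagreed in sign. Itgb1, the common partner of Itga1, Itga4, Itga5 and Itga6, was at 10.69, 10.63 and 10.56 in deleted and 10.36, 11.08 and 10.63 in floxed leukemias. The difference of -0.06 had a 95% interval of -0.47 to 0.34. Of the other collagen and laminin receptor chains that pair with it, Itga2, Itga3 and Itga7 had differences of -0.04, 0.08 and 0.27 and were not called.

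The beta-2 integrins of leukocytes were not called after deletion. Itgb2 was at 13.09, 13.42 and 13.28 in deleted and 12.84, 12.72 and 13.07 in floxed leukemias. The groups lay next to each other without overlap (difference 0.39, 95% interval 0.02 to 0.76, limma adjusted p = 0.208). Itgal, the LFA-1 alpha chain, was at 11.25, 11.31 and 11.09 against 10.77, 10.87 and 11.04 (difference 0.32, limma adjusted p = 0.162). The mean of the pair of Itgal probe sets was called, at a difference of 0.58 (limma adjusted p = 0.0478). Itgam, the Mac-1 alpha chain of granulocytes and monocytes, was at 10.26, 10.42 and 9.69 against 9.51, 8.97 and 10.10, overlapping groups (limma adjusted p = 0.255). Itgax, the alpha chain of dendritic cells and some macrophages, was at 6.64, 6.49 and 6.23 against 6.90, 7.99 and 7.77 (difference -1.10, 95% interval -2.12 to -0.08, limma adjusted p = 0.196).

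P-selectin, encoded by Selp and best known from platelets and endothelium, was at 7.90, 8.29 and 8.28 in deleted, 7.29, 6.89 and 6.99 in floxed and 6.47, 6.30 and 6.98 in Hoxa9-Meis1 leukemias. Each deleted array was above the other 6. The rise after deletion was 2.14-fold (SE 0.20 log2, limma adjusted p = 0.0139). It was not called without floxed replicate 5 (difference 1.01, limma adjusted p = 0.0583) or with deleted replicate 6 and floxed replicate 5 both left out (0.127). Selp lies on chromosome 1, and without deleted replicate 6 the difference was 1.03 (limma adjusted p = 0.0454). Its other 2 probe sets were higher by 0.75 and 1.14 and were not called. Selplg, which encodes the P-selectin ligand PSGL-1, averaged 11.44 ± 0.21 in deleted against 11.79 ± 0.31 in floxed leukemias (95% interval of the difference -0.99 to 0.29).

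Cd47, the surface protein that restrains phagocytosis through SIRP-alpha and associates with integrins, was at 12.75, 12.48 and 12.64 in deleted, 13.23, 13.39 and 13.25 in floxed and 12.92, 13.03 and 12.83 in Hoxa9-Meis1 leukemias. It fell 1.59-fold after deletion (SE 0.12 log2, limma adjusted p = 0.0106), and all 5 Cd47 probe sets were called lower, by 0.67 to 0.93. The call was not made with deleted replicate 6 and floxed replicate 5 both left out (difference -0.63, limma adjusted p = 0.0752). Cd44, the hyaluronan receptor, averaged 11.91 ± 0.24 in deleted against 11.76 ± 0.17 in floxed leukemias (95% interval of the difference -0.21 to 0.53).

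The tetraspanin genes Cd9 and Cd82 rose after deletion. Cd9, whose product associates with beta-1 integrins and is abundant on megakaryocytes and platelets, was at 9.77, 10.04 and 10.27 in deleted, 8.69, 7.82 and 8.53 in floxed and 8.35, 8.08 and 8.35 in Hoxa9-Meis1 leukemias. The rise was 3.21-fold (SE 0.23 log2, limma adjusted p = 0.00328), with every deleted array above the other 6. Floxed replicate 5 was the lowest of the 9 arrays, and without it the difference was 1.42 (limma adjusted p = 0.00573). Cd82 was at 11, 10.99 and 10.77 in deleted and 10.30, 9.67 and 10.38 in floxed leukemias. Its rise of 1.74-fold (limma adjusted p = 0.0417) was not called without any single deleted array (limma adjusted p = 0.121, 0.111 and 0.0678 for replicates 4, 5 and 6), nor without floxed replicate 4 (0.0542) or 5 (0.0778). Cd82 also missed the threshold when just these 2 groups were fitted (0.0842) and after repeated quantile normalization (0.0603).

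Cd151, a laminin-integrin partner, was at 10.08, 10.35 and 10.28 in deleted and 9.74, 9.62 and 9.89 in floxed leukemias. All 6 Cd151 probe sets were higher, by 0.14 to 0.48, and the gene was just outside the threshold (limma adjusted p = 0.0603). It was called with arrays centred on their median (0.035) or a pseudocount of 32 (0.048). Cd81, which is part of the B cell co-receptor complex, was at 12.28, 12.33 and 12.74 against 12.52, 12.48 and 12.42 (difference -0.03, 95% interval -0.46 to 0.41).

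**Figure D2:**
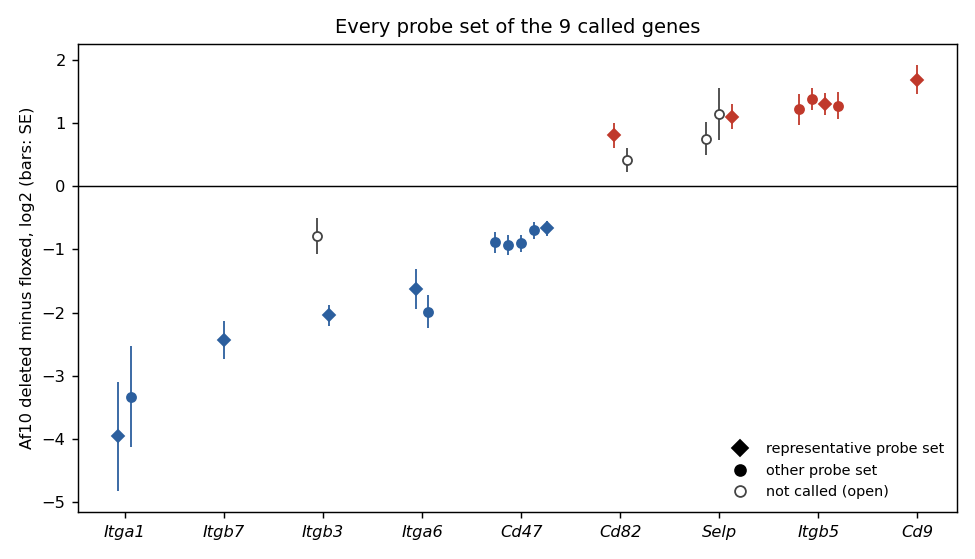
Log2 difference between Af10 deleted and floxed leukemias with its SE for every probe set of the 9 called genes, the representative one as a diamond and those not called as open circles. All probe sets of a gene lie on the same side of 0, from 5 for Cd47 and 4 for Itgb5 to 1 each for Itgb7 and Cd9.

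None of the 3 linkers between integrins and the cytoskeleton was called. Fermt3, the kindlin of blood cells, was at 13.41, 13.33 and 13.31 in deleted and 12.99, 12.43 and 13.07 in floxed leukemias (difference 0.52, 95% interval 0.15 to 0.89, limma adjusted p = 0.102). Tln1, for talin, was at 12.77, 12.79 and 12.66 against 12.38, 12.34 and 12.52 (difference 0.33, limma adjusted p = 0.0916). For both genes every deleted array was above every floxed one. Tln1 was called with a pseudocount of 32 (0.0394) and with a trended robust fit (0.044). Vcl, for vinculin, was at 10.95, 10.86 and 11.18 against 11.31, 11.19 and 11.33 (difference -0.28, 95% interval -0.76 to 0.21).

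The counter-receptors were not called after deletion either. Vcam1, the ligand of Itga4 integrins, was at 10.32, 10.85 and 9.56 in deleted and 9.43, 8.96 and 9.76 in floxed leukemias (difference 0.86, limma adjusted p = 0.158), and was called without deleted replicate 6 (difference 1.20, limma adjusted p = 0.0473). Icam1 and Icam2, the ligands of LFA-1, had differences of 0.08 (95% interval -0.21 to 0.36) and -0.39 (95% interval -0.93 to 0.15). Among the remaining chains, Itgb8 lay at 2.62 to 2.86 on all arrays, below all 9 probe sets of Y-linked genes, whose 2.97 to 4.71 served as the background range. Itga2, Itga3, Itga7, Itga9, Itgae, Itgb4 and Itgb6 differed by -0.04 to 0.27. Itga8 ranged from 5.45 to 7.69 over the 6 MLL-AF9 arrays, with deleted replicate 5 and floxed replicate 4 highest.

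**Figure D3:**
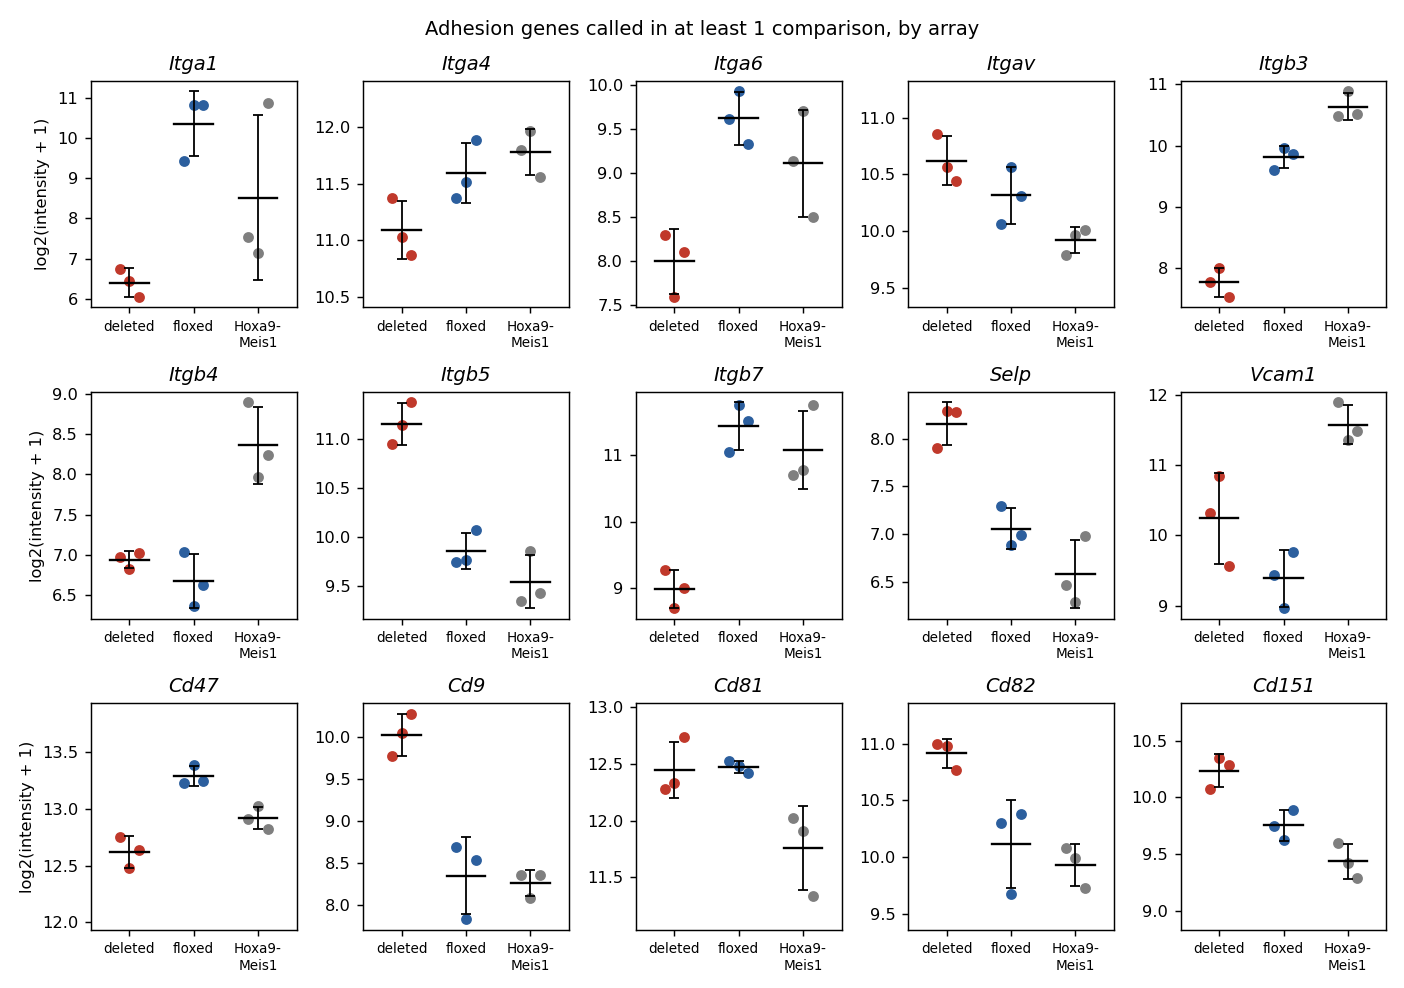
Log2(intensity + 1) on each of the 9 arrays for the 15 adhesion genes called in at least 1 comparison, with the group mean and SD. Deleted arrays (red) are, for example, all below the other 6 for Itgb3 and Itgb7 and all above them for Itgb5, Selp and Cd9. For Itga1 they are also the lowest, and the Hoxa9-Meis1 arrays (grey) are spread widely. The height of each axis differs between genes.

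Markers of other cells were read beside these genes. Of 10 measured megakaryocyte and platelet markers, which bear on Selp, Cd9 and Itgb3, 0 were called in deleted against floxed leukemias by limma and 1 had an unadjusted p under 0.05. Their summed intensity was 1075 to 1271 in deleted and 881 to 1255 in floxed leukemias, and the platelet genes Ppbp and Tubb1 lay in the background range in both groups. Of 11 T and NK cell markers 5 rose, Cd3e among them (from 6.84 to 7.77), and 9 had an unadjusted limma p under 0.05. The summed intensity of the 11 was 1351 to 1456 in deleted against 783 to 863 in floxed leukemias. Klrd1 and Gzma lay in the background range in floxed leukemias, and Ncr1 in both groups. T cells also make Itgal, Itgae and Itgb7, which differed by 0.32, 0.25 and -2.44. Of these Itgb7 alone was called by the probe set with the highest mean. With the mean of its probe sets Itgal was called too (difference 0.58, limma adjusted p = 0.0478). Dendritic cell markers, which include Itgax, summed to 926 to 1203 against 3742 to 5535, with 1 of 7 called. That gene was Flt3, a receptor also made by progenitors, at 11.76 in floxed and 7.19 in deleted leukemias, and without it the list summed to 736 to 1078 against 979 to 1140. B cell markers summed to 1557 to 1718 against 2317 to 3537, and without Vpreb1 to 1326 to 1418 against 1344 to 1581. Of the 7 B cell markers 6 had an unadjusted p under 0.05 and Cd79b was called lower, while the median difference of the list was 0.39, opposite in sign to its sum. Of 9 late neutrophil markers 1 was called, Cxcr2, 3.72-fold higher, and their sums overlapped at 88945 to 115838 against 61793 to 104366. In limma 0 of 11 stromal and endothelial and 0 of 7 erythroid markers were called, and 1 and 0 had an unadjusted p under 0.05. Monocyte and macrophage markers, which include Vcam1, summed to 9052 to 10011 against 8330 to 10027, with 2 higher and 2 lower of 10. Without F13a1, which was called higher, the list summed to 2465 to 5462 in deleted against 6037 to 7582 in floxed leukemias. Of the 10, 7 had an unadjusted limma p under 0.05, and the median difference of the list was 0.18. The part of these cell types in the differences of the adhesion genes was not tested. In these bulk samples fewer cells of a type and less RNA per cell cannot be told apart.

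The wider adhesion pathway was read from lists of named genes. Beside the counts that follow, 3.22% of all genes rose and 3.63% fell after deletion. Of 30 genes for integrin activation and linkage, 1 rose and 3 fell. Tln2, the second talin, fell 3.17-fold (limma adjusted p = 0.000895) and Tns1, a tensin that binds beta tails, fell 5.02-fold (limma adjusted p = 0.00973), a call lost with deleted replicate 6 and floxed replicate 5 both left out. Ilk, the integrin-linked kinase, rose 1.55-fold, but its call was lost when any 1 of the 6 arrays but floxed replicate 6 was left out (limma adjusted p up to 0.0894). Of 31 other adhesion receptors, 0 rose and 5 fell. Cd93 fell 6.86-fold (limma adjusted p = 0.00128) and Cd34, a sialomucin of progenitors, fell 11.8-fold (limma adjusted p = 0.00308). Pecam1 fell 4.36-fold, a call lost without deleted replicate 4 (0.0876) or 5 (0.0834) and without floxed replicate 5 (0.0996) or 6 (0.0667).

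Other lists held few calls after deletion. Of 16 kinases and adaptors downstream of integrins, Vav2 alone was called, 2.05-fold lower, and not without deleted replicate 4 (0.0544) or 6 (0.0675), nor floxed replicate 5 (0.0972) or 6 (0.058). Of 10 genes for making selectin ligands, Galnt1 fell 1.91-fold, and not without deleted replicate 4 (0.0553) or 6 (0.0595), nor floxed replicate 5 (0.0747). In limma 0 genes were called of 20 other tetraspanins and their partners, of 21 matrix and blood ligands and of 4 further integrin chains, where 4, 1 and 0 had an unadjusted p under 0.05. Medians of the lists were -0.09 to 0.18, beside 0.06 for all genes.

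Floxed MLL-AF9 leukemias were then set against Hoxa9-Meis1 leukemias, and 3 of 36 adhesion genes were called, 8.33% beside 8.89% of all genes. All 3 were lower in floxed leukemias, where 3.31% of all genes were called lower and 5.58% higher. Values of 11 of the 36 did not overlap between these groups, beside 27.6% of all genes. Vcam1 was at 9.43, 8.96 and 9.76 in floxed against 11.90, 11.36 and 11.49 in Hoxa9-Meis1 leukemias, 4.59-fold lower (SE 0.32 log2, limma adjusted p = 0.00446), and all 3 Vcam1 probe sets were called. Itgb4, the laminin receptor chain that pairs with Itga6, was at 7.03, 6.36 and 6.63 against 8.89, 7.96 and 8.24, 3.22-fold lower (limma adjusted p = 0.00418). The groups did not overlap for either gene. The monocyte and macrophage markers, which include Vcam1, summed to 8330 to 10027 in floxed against 12528 to 18967 in Hoxa9-Meis1 leukemias. Without F13a1 they summed to 6037 to 7582 against 7254 to 11519. Of these 10 markers 2 were called lower, Vcam1 and F13a1 (2.32-fold), and 0 higher. The part of such cells in the Vcam1 difference was not tested. Itgb3 was 1.76-fold lower (limma adjusted p = 0.0184), a call lost without floxed replicate 4 (0.0554) or Hoxa9-Meis1 replicate 2 (0.0666). The other Itgb3 probe set differed by -0.42 and was not called. With the mean of its probe sets Itgb3 was not called (difference -0.62, limma adjusted p = 0.0816).

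Single arrays moved further genes in that comparison. Itga1 was not called (limma adjusted p = 0.231), and without Hoxa9-Meis1 replicate 3 it was higher in floxed leukemias by 3.03 (limma adjusted p = 0.00502). Vcl, at 10.78, 10.40 and 11.35 in Hoxa9-Meis1 leukemias, was called without the same array (difference 0.68, limma adjusted p = 0.0328). Itga5, at 10.14, 10.12 and 10.07 in Hoxa9-Meis1 leukemias, was called lower in floxed ones without floxed replicate 4 (difference -1.19, limma adjusted p = 0.0267). Itga5 lies on chromosome 15, whose genes lay 0.20 above the other floxed arrays at the median on that array. Of the 4 Cd44 probe sets, 1 was 2.38 lower in floxed leukemias (7.16 against 9.54, limma adjusted p = 0.00242 over all probe sets), while the other 3 differed by -0.34 to 0.23. That probe set was singled out after its values were seen. Single probe sets of other genes not called there also passed: 1 of 5 for Cd47 was higher and 1 of 4 for Fermt3 lower. Of 6 for Cd151, 1 was higher and 1 lower.

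Deleted leukemias against Hoxa9-Meis1 leukemias gave 13 calls of 36, 36.1% beside 15.5% of all genes. Here too the genes were chosen with earlier results known, and the shares are no test of the set. Itgav, Itgb5, Selp, Cd9, Cd81, Cd82 and Cd151 were higher (7 of 36 beside 9.27% of all genes) and Itga4, Itga6, Itgb3, Itgb4, Itgb7 and Vcam1 lower (6 of 36 beside 6.23%). Values of 22 of the 36 did not overlap, beside 34.9% of all genes. This comparison shares its groups with both others, so its values are given beside theirs and add no independent evidence. Itgb3 was 7.26-fold lower (SE 0.17 log2, limma adjusted p = 1.79e-05), Itgb7 4.24-fold lower (limma adjusted p = 0.00227) and Itgb4, at 6.97, 6.83 and 7.03 in deleted leukemias, 2.68-fold lower (limma adjusted p = 0.00535).

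All 4 measured tetraspanins among these genes were higher in deleted than in Hoxa9-Meis1 leukemias, by 0.69 to 1.77. Cd9 was 3.41-fold higher (limma adjusted p = 0.00127), Cd82 1.98-fold (limma adjusted p = 0.0101) and Cd151 1.74-fold (limma adjusted p = 0.00405). Of the 2 Cd82 probe sets 1 was called, and the other differed by 0.36. Of the 6 Cd151 probe sets 4 were called higher, and the lowest differed by -0.28. With the mean of its probe sets the Cd151 difference was 0.52, against 0.80. Cd81, at 12.03, 11.91 and 11.34 in Hoxa9-Meis1 leukemias, was 1.61-fold higher (limma adjusted p = 0.0421). Its call was lost without any single deleted array (limma adjusted p = 0.0656, 0.075 and 0.12 for replicates 4, 5 and 6) and without Hoxa9-Meis1 replicate 2 (0.0742) or 3 (0.0822). Of the 20 other tetraspanins and partners, Tspan5 was higher and Tspan3 lower.

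Selp was 2.97-fold higher than in Hoxa9-Meis1 leukemias (limma adjusted p = 0.00124) and Itgb5 3.05-fold (limma adjusted p = 0.000505), by all 3 and all 4 probe sets. Itgav, at 10.86, 10.57 and 10.44 in deleted and 9.79, 9.96 and 10.01 in Hoxa9-Meis1 leukemias, was 1.63-fold higher (limma adjusted p = 0.0193). That was not called without deleted replicate 4 (0.0668) or Hoxa9-Meis1 replicate 1 (0.0767) or 2 (0.0553). Vcam1 was 2.53-fold lower (limma adjusted p = 0.024), and not called without deleted replicate 4 (0.0616) or 6 (0.0504) or Hoxa9-Meis1 replicate 1 (0.0929) or 2 (0.0502). The monocyte and macrophage markers, which include Vcam1, summed to 9052 to 10011 in deleted against 12528 to 18967 in Hoxa9-Meis1 leukemias. Of these 10 markers 1 was called higher and 2 lower. The part of such cells in the Vcam1 difference was not tested.

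Itga4, at 11.80, 11.97 and 11.56 in Hoxa9-Meis1 leukemias, was 1.61-fold lower in deleted ones (limma adjusted p = 0.0354). Leaving out deleted replicate 5 or 6 or Hoxa9-Meis1 replicate 1 or 2 ended that call (limma adjusted p = 0.0994, 0.103, 0.107 and 0.126). Itga6, at 9.13, 9.71 and 8.49 in Hoxa9-Meis1 leukemias, was 2.17-fold lower (limma adjusted p = 0.0397), and not called without any 1 deleted array or Hoxa9-Meis1 replicate 1 or 2 (0.0586 to 0.125). Of the beta-2 integrins, Itgb2 was at 12.51, 12.59 and 13.02 in Hoxa9-Meis1 leukemias and just outside the threshold (difference 0.56, limma adjusted p = 0.0514). Without Hoxa9-Meis1 replicate 3 it was called (0.0175), and so was Itgax (difference -1.75, limma adjusted p = 0.00912).

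**Figure D4:**
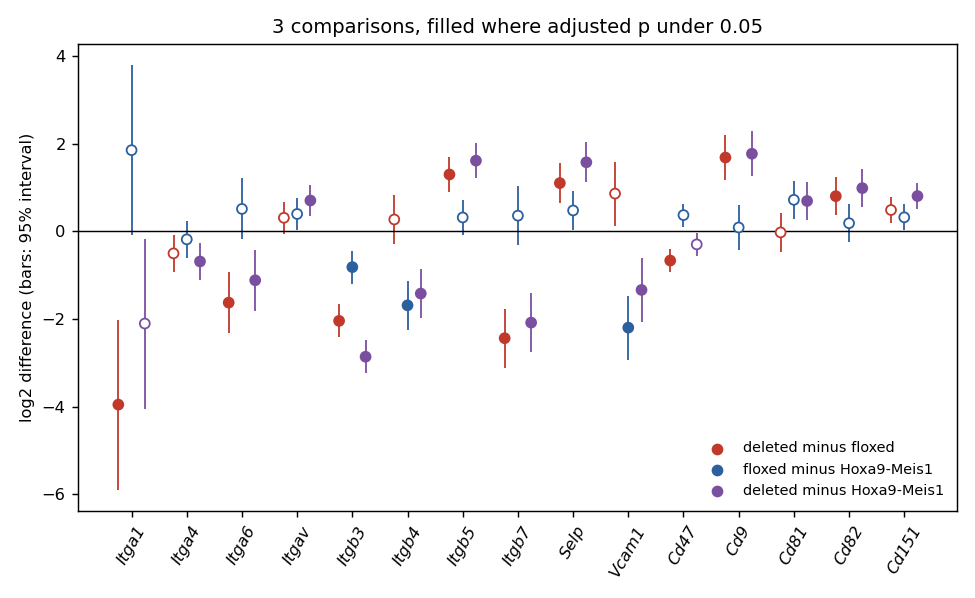
Log2 difference with its 95% interval for the 15 adhesion genes in the 3 comparisons, filled where the limma adjusted p was under 0.05. The comparisons share groups. Itgb4 and Vcam1 were called lower in both MLL-AF9 groups against Hoxa9-Meis1 leukemias, and Itgb3 was called in all 3 comparisons.

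Calls among the wider lists in the comparisons with Hoxa9-Meis1 leukemias were mixed in direction. Of 30 activation and linkage genes, 3 were higher and 2 lower in floxed than in Hoxa9-Meis1 leukemias (8.89% of all genes were called), and 4 were higher and 4 lower in deleted than in Hoxa9-Meis1 leukemias (15.5% of all genes). Tln2 was 4.37-fold higher in floxed than in Hoxa9-Meis1 leukemias (limma adjusted p = 0.000212). Actn1, an actin crosslinker at integrin contacts, was 6.22-fold higher in floxed (limma adjusted p = 0.0252) and 9.51-fold in deleted ones (limma adjusted p = 0.00672). The floxed call for Actn1 was lost without floxed replicate 4 (0.0627) or 6 (0.0712) or Hoxa9-Meis1 replicate 1 (0.0884) or 2 (0.0851). Of the 31 other adhesion receptors, 4 were higher and 1 lower in floxed, and 4 higher and 6 lower in deleted leukemias. The progenitor surface gene Prom1 was 4.20-fold higher in floxed and 9.43-fold higher in deleted leukemias. In deleted leukemias Cd93 was 13.4-fold lower (limma adjusted p = 0.000113) and Cd34 12.9-fold lower (limma adjusted p = 0.00128). Of 21 ligands, 1 was higher and 1 lower in floxed, and 2 higher and 1 lower in deleted leukemias. Postn, which encodes periostin, was 5.39-fold higher in floxed leukemias (limma adjusted p = 0.00174) and 6.03-fold in deleted ones. Emilin1 was 1.82-fold lower in floxed (limma adjusted p = 0.0207) and 2.14-fold in deleted leukemias (limma adjusted p = 0.00452). Its floxed call was lost without floxed replicate 5 (0.0633) or Hoxa9-Meis1 replicate 1 (0.0876) or 2 (0.0787).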

How the data were processed

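The deposited intensities were made by the authors with RMA, per the submitters' processing notes, and its version is not given in the sources used here. The deposited intensity values run from 4.60 to 32082 with array medians of 146 to 156, so the scale is linear, and log2(value + 1) was taken. This slightly understates changes of dim genes, and quantile normalization within RMA removes a shift shared by most genes. The number of arrays limits the precision.

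Of 45101 probe sets, 34958 carried 1 gene symbol in the platform annotation, giving 18194 genes. Their differences between groups came from 1 linear model of the 3 group means, fitted with limma 3.58.1 in R 4.3.3 (two-sided). A gene was called at an adjusted p under 0.05. Dim values were judged against 9 Y-linked probe sets. Genes of 236 list entries were matched by symbol or RefSeq synonym, 214 of them with a value, and symbols absent here are not analysed. The members, lists and tests were chosen with earlier results of these data known. Members were named in full where called in any comparison or where they are leukocyte integrin chains or linkers; list genes by lowest adjusted p, at most 3 a list. Protein stretches planned for the beta chains were not used here. The fit was tested on simulated data. No arrays were duplicates (smallest mean absolute difference 0.22, log2). Alternatives covered samples in the fit, pseudocount, normalization, low values, probe sets, moderation, array weights, pairing and arrays left out.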

Additional observations from a re-analysis of the deposited data

How the results depend on the processing

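All calls among the 36 genes kept their sign under every alternative run: 9 calls under 18 alternatives in deleted against floxed, 3 under 17 in floxed against Hoxa9-Meis1 and 13 under 17 in deleted against Hoxa9-Meis1 leukemias. Of these, 4, 2 and 8 were called under every alternative. Without deleted replicate 6 and floxed replicate 5 together, 2 genes were higher and 2 lower after deletion, with 498 of all genes called in place of 1246; fewer samples enter that fit. The labels do not say whether the replicate numbers 4, 5 and 6 pair the samples, and the deviations of same-numbered arrays gave no sign of it (correlations 0.03, 0.05 and 0.01). In the fit with that number as a replicate block, 2 members were higher, Itgb5 and Cd9, 4 were lower and 599 genes were called. Selp, Cd47 and Cd82 were not called there (limma adjusted p = 0.06, 0.0894 and 0.128). Against Hoxa9-Meis1 leukemias the number of members higher in floxed ones, 0 as reported (limma; 11 of 36 had an unadjusted p under 0.05 in either direction), was 1 with arrays centred on their median or only genes above the highest Y-linked value, and 2 after averaging the probe sets of each gene, with a trended robust fit or array weights, where 2543 genes were called in place of 1618. The cause was not tested. Leaving out 1 array gave 2 to 4 members higher, 3 to 5 lower and 645 to 1204 genes after deletion. For floxed against Hoxa9-Meis1 it gave 0 to 3 higher, 2 to 4 lower and 681 to 1799 genes, and for deleted against Hoxa9-Meis1 5 to 7 higher, 3 to 8 lower and 1540 to 2710 genes. The count of members lower after deletion was 3 without deleted replicate 5 or floxed replicate 5, and that of members higher was 2 without floxed replicate 5. The matrix ligand gene Npnt, called higher in deleted than in Hoxa9-Meis1 leukemias, turned to -0.19 with the mean of its probe sets, and the cause was not tested.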
